A study of Mus musculus with 18 samples.

Results

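The genes described here are the UDP-glucuronosyltransferases (UGTs) and cytosolic sulfotransferases (SULTs) of mouse liver. They were chosen by name, as every protein-coding gene whose symbol starts with Ugt1a, Ugt2, Ugt3 or Sult, which gave 42 of the 54532 genes in the table: 9 Ugt1a, 10 Ugt2, 2 Ugt3 and 21 Sult genes. RNA-seq had been made from the liver of 18 male C57BL/6J mice (C57BL/6 in the sample labels), 6 in each of 3 groups. Normal control (NC) mice ate normal chow. HFD control mice were kept on a high-fat diet (HFD), at first alone for 14 weeks and then together with saline. SZ-A mice ate the same diet and received SZ-A, an alkaloid preparation from mulberry twig (Ramulus Mori), in place of saline. The mice were 6 weeks old on arrival and were fasted overnight before the liver was taken. The treatment lasted 8 weeks by the series description and 6 weeks by the study's methods. The study used several doses and both intragastric and intraperitoneal dosing, and the labels do not say which the sequenced SZ-A mice received, nor by which route saline was given to the HFD mice. NC6 is titled as a chow mouse although its diet label reads high-fat diet, and it was kept in NC.

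UGTs and SULTs carry out conjugation, the phase of drug and hormone metabolism in which a water-soluble group is attached to a substrate. UGTs sit in the membrane of the endoplasmic reticulum and transfer a sugar, mostly glucuronic acid from UDP-glucuronic acid, to bilirubin, phenols, steroids, bile acids, fatty acids and drugs. SULTs lie in the cytosol and transfer a sulfate group from the donor PAPS to phenols, catecholamines, thyroid hormones, steroids and bile acids. The liver is the main site of both reactions, and its transporters move the conjugates into bile or blood.

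The Ugt1a genes need a word on their structure, because it decides what a count on them means. Each Ugt1a gene has a starting exon and promoter of its own and joins it to a common set of later exons on chromosome 1, which encode the part of the enzyme that binds the sugar donor. In the GRCm38 annotation (GENCODE M21) 3 exons with the same coordinates were present in all 9 genes, at chr1:88215044-88215175, chr1:88215795-88215882 and chr1:88216138-88216357, and the genes also overlap in the last exon. The junctions below are shown because only the lower-case part tells the 4 tested members apart: it is the last 30 bases of the own exon, 5′ to 3′ on the + strand, and the capitals are the first 30 bases of the shared exon. They were read from GENCODE M21 transcripts. The own exons lie at chr1:88211959-88212871 (Ugt1a1), chr1:88166012-88166903 (Ugt1a5), chr1:88106862-88107799 (Ugt1a6b) and chr1:88070800-88071678 (Ugt1a9).
Ugt1a1: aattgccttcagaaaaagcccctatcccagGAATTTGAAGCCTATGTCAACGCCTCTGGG
Ugt1a5: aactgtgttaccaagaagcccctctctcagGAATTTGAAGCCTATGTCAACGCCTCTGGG
Ugt1a6b: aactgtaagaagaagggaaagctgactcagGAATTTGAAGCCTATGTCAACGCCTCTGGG
Ugt1a9: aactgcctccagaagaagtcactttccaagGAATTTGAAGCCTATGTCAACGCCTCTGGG
Ugt1a8 holds the same shared exons and yet was at 0 in 17 of 18 mice, so fragments lying in those exons were not given to it. Own bases, those that no other gene model overlaps, were 17.3% of the exon length of Ugt1a1, 40.5% of Ugt1a5, 39.4% of Ugt1a6b and 40.1% of Ugt1a9. In Ugt1a1 they number 385, fewer than the 913 bases of its own exon, the rest of which is overlapped. FPKM (fragments scaled to gene length and to a library size) divides by the whole length and therefore understates these levels. Per own base the levels would be about 5.78, 2.47, 2.54 and 2.49 times higher in that order. Fold changes between groups are not altered by this.

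Depth was similar in all mice, at 17163191 to 20493907 fragments on genes. Apart from the alternatives given below, every fold change is a difference of log2(FPKM + 0.1), so that the change of low genes comes out too small. Some alternatives used another pseudocount, another scaling or the fragments. Genes with a mean of at least 1 FPKM over the 18 mice were tested with limma, 10216 in all, and a call needed more than a 1.2-fold change together with an adjusted p (Benjamini-Hochberg) below 0.05. Each comparison used its own pair of groups, and HFD mice enter both of the first comparisons below. The labels do not say whether the mice of a group shared cages. Among the cell type markers checked, the summed hepatocyte level was 38129 to 56964 FPKM in NC, 23756 to 41853 in HFD mice and 30309 to 53572 in SZ-A mice. The sum of 6 adipocyte markers was 1.49 to 8.68 FPKM in NC, 24.2 to 137.6 in HFD mice and 2.62 to 33.6 in SZ-A mice, with leptin at 0 in every NC and SZ-A mouse. The sum of 7 macrophage and Kupffer cell markers was 78.1 to 169.4 FPKM in NC, 127 to 274 in HFD mice and 148 to 190.0 in SZ-A mice. The sum of 7 stellate cell markers was 35.7 to 50.6 FPKM in NC, 40.6 to 91.4 in HFD mice and 37.5 to 55.1 in SZ-A mice. The sum of 6 pancreas acinar markers was 3.17 to 5.17 FPKM in NC, 4.53 to 9.10 in HFD mice and 8.78 to 10.8 in SZ-A mice, with Pnlip and Amy2a5 at 0 in every mouse. Of these 6, 1 passed the filter for testing. Endothelial cell, cholangiocyte and T and B cell markers overlapped between the groups in their sums. In HFD against NC, 3 of 7 hepatocyte markers were called lower. Called higher were 5 of 7 stellate cell, 3 of 7 macrophage and Kupffer cell, 2 of 2 tested adipocyte and 1 of 6 endothelial cell markers. No tested cholangiocyte or pancreas acinar marker was called there. Of all genes tested 10.7% were higher and 9.49% lower. In SZ-A against NC, 1 hepatocyte and 1 cholangiocyte marker were called lower. Called higher there were 1 macrophage and Kupffer cell, 1 stellate cell and 1 pancreas acinar marker. Over all genes tested it was 5.31% higher and 4.30% lower. In SZ-A against HFD, 1 macrophage and Kupffer cell marker was called lower, where 0.147% of all genes tested were called. The part of these markers in the results was not tested. In whole liver, fewer cells of a type and less RNA per cell cannot be told apart. On the genes called between HFD and the other 5 NC mice, NC6 was nearer to NC than to HFD for 67.1% of 2025 genes, against 75.3% to 88.6% for the other NC mice tested in the same way.

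Of the 42 genes, 21 passed the filter: 4 Ugt1a, 8 Ugt2, 2 Ugt3 and 7 Sult genes. The summed level of all 42 was 1709 ± 144 FPKM (SD, n = 6) in NC, 1678 ± 227 in HFD mice and 1813 ± 114 in SZ-A mice, and the ranges of the groups overlapped. The UGT part of that sum was 1207 ± 146 FPKM in NC, 1231 ± 152 in HFD mice and 1259 ± 83.2 in SZ-A mice. The SULT part was 502 ± 67.1 FPKM in NC, 447 ± 81.5 in HFD mice and 555 ± 84.8 in SZ-A mice. Most of the total came from few genes. Ugt2b5 was the highest member, at a mean of 337 FPKM over the 18 mice, and Sult2a8 the highest SULT, at 238 FPKM.

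**Figure D1:**
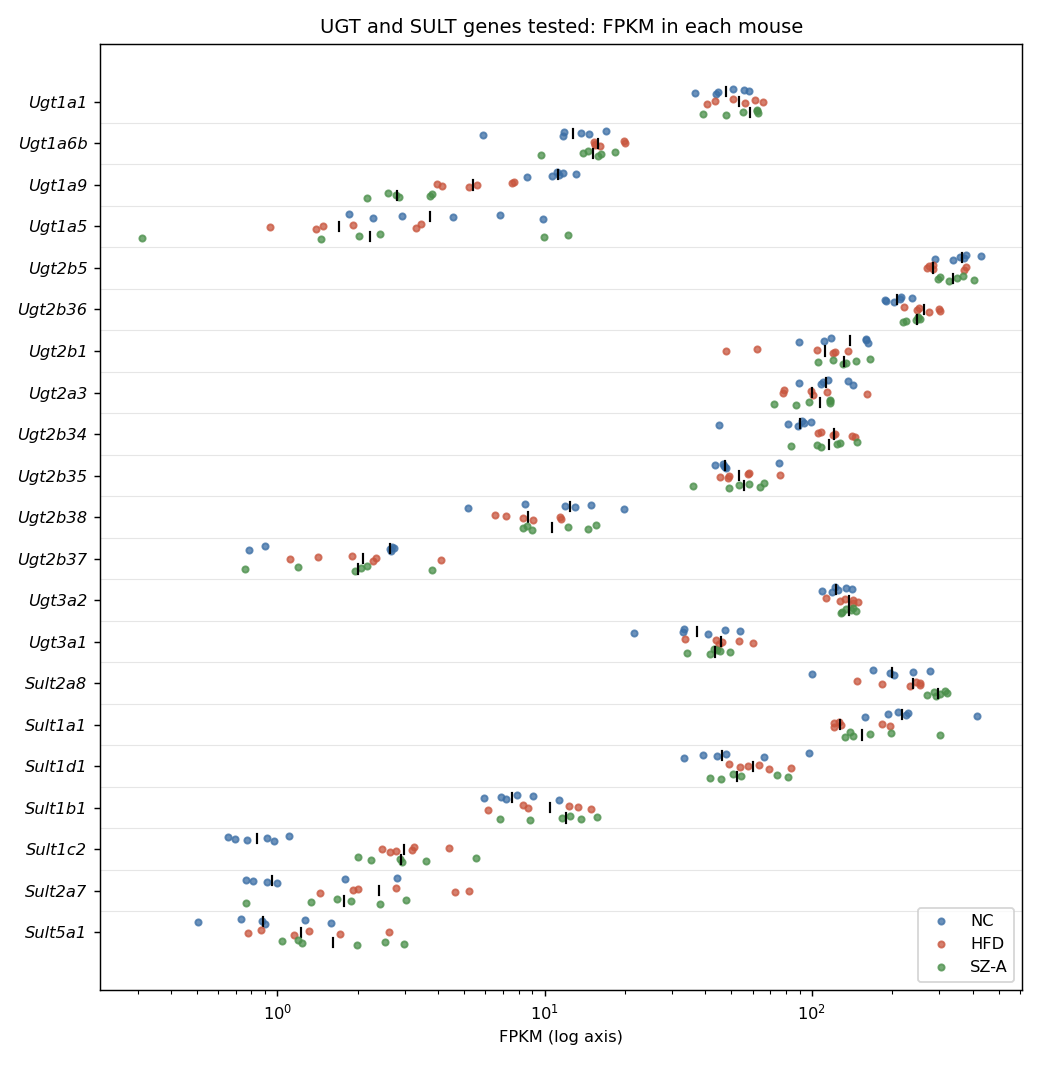
FPKM (log axis) of the 21 tested UGT and SULT genes in each of the 18 mice, ordered by family and level, with points for mice and black ticks for group medians. Ugt2b5 lies highest, the groups of most genes overlap, and Ugt1a9 is the gene whose 3 groups lie apart, with NC highest and SZ-A lowest.

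The question put to HFD against NC was what the diet did to these genes. After HFD 6 of the 21 tested members differed from NC: Sult1c2, Sult2a7, Ugt2b34 and Ugt2b36 were higher, where 10.7% of all genes tested were, and Ugt1a9 and Sult1a1 were lower, where 9.49% were. The calls fell in 3 of the 4 families, with no common direction. In either direction 20.2% of the 10216 genes tested were called, so a share of 6 in 21 (28.6%) is near the background. The median log2 fold change of the 21 was 0.13, against -0.03 over all genes tested. Groups did not overlap for 3 members, Sult1c2, Ugt1a9 and Ugt2b34, where 10.5% of all genes tested had groups that did not overlap.

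Among the Ugt1a genes, Ugt1a9, which conjugates phenols and fatty acids, was the member called in HFD against NC, and it was lower. NC mice ran from 8.61 to 13.1 FPKM with a median of 11.2, HFD mice from 3.97 to 7.71 with a median of 5.4, and SZ-A mice from 2.16 to 3.80 with a median of 2.81. Every HFD mouse was below every NC mouse, and every SZ-A mouse was below every HFD mouse. Ugt1a9 was 1.98-fold lower in HFD than in NC mice (log2 fold change -0.98 ± 0.17 SE; limma, adjusted p = 0.00144). The call held in all 23 alternatives of scaling, filter, model and mice, with log2 fold changes of -1.08 to -0.79, and without NC6 the value was -1.05. With more than a 2-fold change required, Sult1c2 and Sult2a7 were the 2 members called in this comparison, where 371 of the 10216 genes tested were.

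Ugt1a1, the enzyme that conjugates bilirubin, was the most abundant Ugt1a gene. It measured 48.2 ± 8.10 FPKM (SD, n = 6) in NC, 53.0 ± 9.98 in HFD mice and 55.0 ± 9.71 in SZ-A mice, and its groups overlapped. Per own base this is about 279 FPKM in NC mice, against 27.6 for Ugt1a9, 31.6 for Ugt1a6b and 11.6 for Ugt1a5. Fragments at the junctions of own and shared exons make these per-own-base levels approximate, and a further gene model, Gm20528, overlaps Ugt1a exons too. The level of Ugt1a1 would be lower if fragments in the overlapped part of its own exon were counted to it. Ugt1a1 was not called in HFD against NC (log2 fold change 0.13 ± 0.14 SE; limma, adjusted p = 0.548).

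Ugt1a6b, which conjugates small planar phenols, had 5.86 to 17.0 FPKM in NC, 15.3 to 19.9 in HFD mice and 9.70 to 18.3 in SZ-A mice. It was not called (log2 fold change 0.51 ± 0.21 SE; limma, adjusted p = 0.0942), and it crossed the threshold when each mouse was scaled to a common sum and with sample weights. Ugt1a6b shares 70.7% of its 100-base windows with Ugt1a6a, the shared exons included, so the split of fragments between the pair is uncertain. Ugt1a5 varied widely within groups. It ran from 1.86 to 9.88 FPKM in NC, 0.936 to 3.44 in HFD mice and 0.312 to 12.2 in SZ-A mice. Its log2 fold change of -1.04 ± 0.41 SE in HFD against NC was not called (limma, adjusted p = 0.0908), while without NC1 or with sample weights it was.

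Since the Ugt1a genes share a locus, the make-up of the fragments counted to them was compared as well. Ugt1a9 took 13.9% ± 2.38 of these fragments (SD, n = 6) in NC, 6.94% ± 1.65 in HFD mice and 3.69% ± 0.788 in SZ-A mice. Its share was 11% to 18.1% in NC, 5% to 8.97% in HFD mice and 2.97% to 5.12% in SZ-A mice, so NC lay apart and the ranges of HFD and SZ-A overlapped. Ugt1a1 took 60.8% ± 3.31 in NC, 65.4% ± 5.78 in HFD mice and 68.2% ± 4.59 in SZ-A mice. These are shares of fragments and not of transcripts, since own bases differ in number (385 in Ugt1a1, 879 in Ugt1a9). The summed Ugt1a level was 77.7 ± 11.7 FPKM in NC, 78.7 ± 9.59 in HFD mice and 79.0 ± 16.9 in SZ-A mice, which differed by less than the spread. No test was run on the shares, which were computed after the values of Ugt1a9 had been seen.

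**Figure D2:**
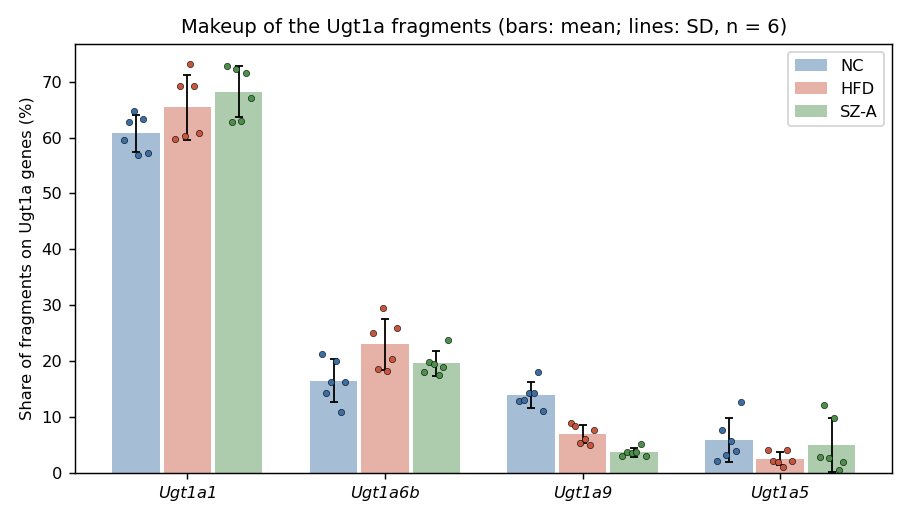
Share of the fragments counted to Ugt1a genes (%) that fell on each tested member, by group; bars are means, lines SD over 6 mice and points single mice. The share of Ugt1a9 steps from 13.9% in NC to 6.94% in HFD mice and 3.69% in SZ-A mice, while Ugt1a1 holds 60.8% to 68.2%.

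The promoters of Ugt1a9, which fell, and Ugt1a1, which was not called, are shown to be read beside these values. Both come from RefSeq (GRCm38.p6), 250 bases before to 50 bases after the start, 5′ to 3′ on the + strand, at chr1:88070529-88070828 for Ugt1a9 and chr1:88211709-88212008 for Ugt1a1. Capitals mark matches on either strand to AGGTCA (part of the sites of nuclear receptors), TATAAA (the core promoter box), GCGTG (the core bound by the aryl hydrocarbon receptor) or CACGTG (an E-box).
Ugt1a9: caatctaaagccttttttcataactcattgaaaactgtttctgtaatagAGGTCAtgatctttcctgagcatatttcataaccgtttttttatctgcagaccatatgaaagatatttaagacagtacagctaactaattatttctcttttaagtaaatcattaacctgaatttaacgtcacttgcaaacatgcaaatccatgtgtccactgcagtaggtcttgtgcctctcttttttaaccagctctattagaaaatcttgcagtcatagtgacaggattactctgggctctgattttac
Ugt1a1: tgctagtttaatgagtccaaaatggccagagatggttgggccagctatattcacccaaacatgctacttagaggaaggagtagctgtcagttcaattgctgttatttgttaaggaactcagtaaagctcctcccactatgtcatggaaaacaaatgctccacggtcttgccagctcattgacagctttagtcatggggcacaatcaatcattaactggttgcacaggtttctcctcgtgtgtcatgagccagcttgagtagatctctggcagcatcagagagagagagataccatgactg
Ugt1a9 held AGGTCA at -201 from the start, and the Ugt1a1 window held none of the 4 motifs. A promoter was found for 36 of the 42 members, with 39 entries. AGGTCA was in 10 of the 39, against 16.3% of all 32851 promoters, TATAAA in 11 against 13.6%, GCGTG in 6 against 32.4% and CACGTG in 0 against 7.15%. No motif contains another, and a match describes the letters and not binding. Ugt1a and Ugt2 genes lie in clusters of related copies, so their promoters are not independent of each other.

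The Ugt2 genes act on steroids, bile acids and many drugs. In HFD against NC 2 of the 8 tested were called, where 20.2% of all genes tested were. Both were higher, where 10.7% of all genes tested were. The median log2 fold change of the 8 was -0.03, with 4 above 0 and 4 below. Ugt2b34 (chr5:86889767-86906937, - strand, GRCm38) ran from 45 to 99.7 FPKM in NC with a median of 90.1, from 106 to 145 in HFD with a median of 121, and from 83.6 to 148 in SZ-A mice with a median of 116. HFD mice all lay above NC mice, and SZ-A mice overlapped both. Ugt2b34 was 1.52-fold higher in HFD (log2 fold change 0.60 ± 0.17 SE; limma, adjusted p = 0.0255). The lowest NC mouse was NC5, and without it the log2 fold change was 0.44 with an adjusted p of 0.00766 (limma). The call was lost in 3 of 23 alternatives: without the filter on low values, with the replicate number as a block and without HFD6, with adjusted p up to 0.0735 (limma).

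Ugt2b36 (chr5:87065927-87092555, - strand) was 1.28-fold higher in HFD (log2 fold change 0.35 ± 0.09 SE; limma, adjusted p = 0.0185). It ran from 187 to 237 FPKM in NC with a median of 208, from 221 to 302 in HFD with a median of 263, and from 220.0 to 253 in SZ-A mice with a median of 248. The ranges of NC and HFD overlapped between 221 and 237 FPKM, and every HFD mouse was above the NC mean. Of 23 such alternatives the call was lost in 1, with the replicate number as a block, where the adjusted p was 0.0534 (limma).

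The other 6 Ugt2 genes were not called, and Ugt2b38 crossed the threshold with sample weights (log2 fold change -0.61, limma, adjusted p = 0.0367). Ugt2b5 had 359 ± 46.1 FPKM (SD, n = 6) in NC, 310.3 ± 50.4 in HFD mice and 340.5 ± 41.9 in SZ-A mice. Ugt2b1 ran from 89.7 to 162 FPKM in NC, 47.6 to 137 in HFD mice and 105 to 165 in SZ-A mice. The log2 fold change was -0.50 ± 0.26 SE (limma, adjusted p = 0.189). Ugt2a3 had 117 ± 19.4 FPKM in NC, 105 ± 30.4 in HFD mice and 101 ± 19.1 in SZ-A mice, and Ugt2b35 had 51.2 ± 11.8, 55.8 ± 11.3 and 54.4 ± 11.1 in the same order. The lower members were Ugt2b38, at 12.2 ± 5.10, 9.01 ± 2.12 and 11.4 ± 3.21 FPKM, and Ugt2b37, at 2.07 ± 0.950, 2.19 ± 1.05 and 1.99 ± 1.05 FPKM. Ugt2b38 shares 24.2% of its 100-base windows with Ugt2b5, so the split of fragments between these genes is uncertain. The log2 fold changes of these 6 in HFD against NC lay between -0.50 and 0.13.

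The pair of Ugt3 genes, whose enzymes use sugar donors other than UDP-glucuronic acid, were not called in any comparison. Ugt3a2 had 125 ± 11.2 FPKM (SD, n = 6) in NC, 134 ± 13.1 in HFD mice and 137 ± 7.43 in SZ-A mice. Ugt3a1 had 38.3 ± 11.5, 47.1 ± 9.11 and 42.9 ± 5.08 FPKM in the same order. Their log2 fold changes in HFD against NC were 0.10 ± 0.09 SE and 0.33 ± 0.20 SE (limma, adjusted p = 0.447 and 0.257), and Ugt3a2 crossed the threshold with each mouse scaled to a common sum (log2 fold change 0.29, limma, adjusted p = 0.0427).

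Of the 7 tested SULT genes, 3 were called in HFD against NC, where 20.2% of all genes tested were. Sult1c2 (chr17:53829637-53846339, - strand, GRCm38), a phenol sulfotransferase, had the largest fold change of the members, on a low level. NC mice ran from 0.652 to 1.11 FPKM with a median of 0.842, HFD mice from 2.46 to 4.39 with a median of 2.98, and SZ-A mice from 2.01 to 5.51 with a median of 2.90. Both HFD groups lay above all NC mice and overlapped each other. Against NC, HFD mice had 3.37-fold more Sult1c2 (log2 fold change 1.75 ± 0.16 SE; limma, adjusted p = 2.78e-05). The level rested on 21 to 36 fragments a mouse in NC and 85 to 186 in HFD mice and the call held in every alternative in which the gene was tested.

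Sult2a7 (chr7:14465051-14494230, - strand), of the hydroxysteroid sulfotransferase family, was 2.15-fold higher in HFD (log2 fold change 1.1 ± 0.36 SE; limma, adjusted p = 0.0445). It ran from 0.767 to 2.80 FPKM in NC with a median of 0.956, from 1.45 to 5.19 in HFD with a median of 2.39, and from 0.761 to 3.04 in SZ-A mice with a median of 1.78. The groups overlapped. The call was lost in 11 of 22 alternatives, among them those without NC3, NC4, NC5, NC6, HFD1, HFD2, HFD4 or HFD5, and the adjusted p reached 0.126 (limma). Without NC6 it was 0.0754 and without NC5 0.0739.

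Sult1a1 (chr7:126672865-126676432, - strand), a phenol sulfotransferase abundant in liver, was 1.59-fold lower in HFD (log2 fold change -0.66 ± 0.21 SE; limma, adjusted p = 0.0373). It ran from 159 to 415 FPKM in NC with a median of 217, from 121 to 197 in HFD with a median of 128, and from 133 to 301 in SZ-A mice with a median of 154. NC and HFD overlapped between 159 and 197 FPKM. NC5 held the highest value, and without it the log2 fold change was -0.49 with an adjusted p of 0.0369 (limma). The call was lost in 9 of 23 alternatives, among them those without NC1, NC2, NC4, HFD1, HFD2, HFD4 or HFD6, with adjusted p up to 0.104 (limma), and with each mouse scaled to a common sum the log2 fold change was -0.47 with an adjusted p of 0.0526 (limma).

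The 4 other tested SULTs were not called in HFD against NC. Sult2a8 (chr7:14410686-14446769, - strand), known for the sulfation of bile acids, had 197 ± 61.0 FPKM (SD, n = 6) in NC and 219 ± 43.9 in HFD mice. Sult1d1, which acts on catecholamines, had 54.7 ± 23.8 FPKM in NC, 62.7 ± 12.6 in HFD mice and 58.0 ± 16.2 in SZ-A mice. Sult1b1, which acts on thyroid hormones, had 8.04 ± 1.91, 10.6 ± 3.40 and 11.5 ± 3.23 FPKM in the same order. Sult5a1 had 0.979 ± 0.392, 1.41 ± 0.683 and 1.83 ± 0.805 FPKM. All 4 had positive log2 fold changes, from 0.19 to 0.45, which for Sult2a8 turned to -0.022 with sample weights.

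**Figure D3:**
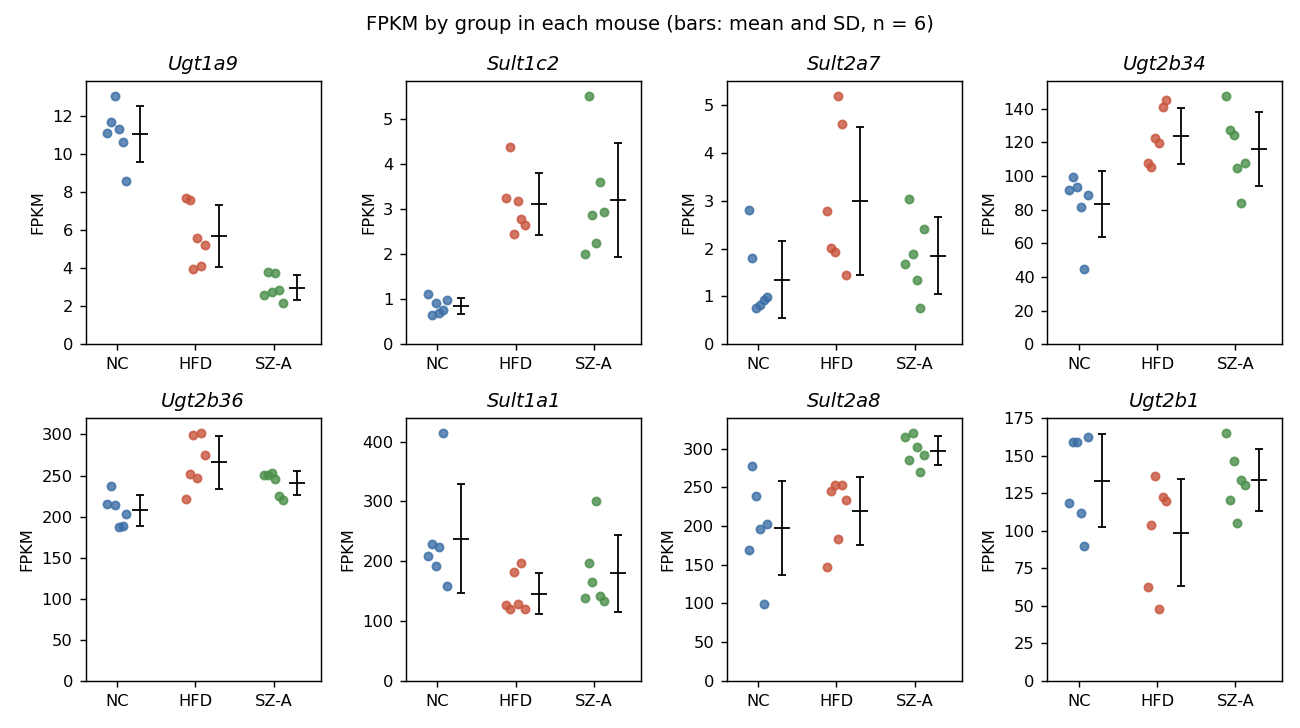
FPKM of 8 UGT and SULT genes in each mouse, by group, with the mean and SD (n = 6) beside the points and each axis starting at 0; 7 were called in a comparison and Ugt2b1 was not. Sult1c2 lies at 0.652 to 1.11 in NC and at 2.01 or more in both HFD groups, and Sult2a8 lies at 270.4 or more in all SZ-A mice.

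SZ-A against HFD asked what the alkaloids changed under the same diet. None of the 21 members passed the threshold, where 0.147% of all genes tested did (15 of 10216). At the same cutoffs the study reported many more genes between these groups, with another test (DESeq2). A member not called here is therefore not shown to be unchanged. At an unadjusted p under 0.05 there were 2 members, Ugt1a9 and Sult2a8, against 14.8% of all genes. Groups did not overlap for the same 2 members, against 1.28% of all genes tested. The median log2 fold change of the 21 was -0.02, against 0.03 over all genes.

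Ugt1a9 had the lowest p of the members. Its level was 2.98 ± 0.651 FPKM (SD, n = 6) in SZ-A against 5.70 ± 1.63 in HFD mice, with 2.16 to 3.80 FPKM against 3.97 to 7.71. The log2 fold change was -0.89 ± 0.19 SE (limma, unadjusted p = 0.000409, adjusted p = 0.0865), lower in 6 of 6 SZ-A mice. It passed the threshold in 3 alternatives, with an adjusted p of 0.0365 when all 18 mice were fitted together, 0.0363 with each mouse scaled to a common sum and 0.0268 with sample weights (limma). Over all its alternatives the adjusted p ran from 0.0268 to 0.193.

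Sult2a8 ran from 147 to 253 FPKM in HFD mice with a median of 239, and from 270.4 to 321 in SZ-A mice with a median of 297. Every SZ-A mouse was above every HFD mouse, and the SZ-A group was narrow. The log2 fold change was 0.47 ± 0.13 SE (limma, unadjusted p = 0.00321, adjusted p = 0.136). Ugt2b1 was at 134 ± 20.7 FPKM in SZ-A against 98.8 ± 35.8 in HFD mice, with a log2 fold change of 0.52 ± 0.24 SE (limma, adjusted p = 0.337). Sult2a7 was at 1.85 ± 0.801 against 2.99 ± 1.55 FPKM, with a log2 fold change of -0.63 ± 0.35 SE (limma, adjusted p = 0.430). Sult1c2, at 3.19 ± 1.27 against 3.12 ± 0.693 FPKM, differed by -0.02 ± 0.22 SE on the log2 scale. The remaining 16 members had log2 fold changes of -0.22 to 0.47, Ugt1a5 being the highest at 0.47 ± 0.70 SE.

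SZ-A against NC compared treated HFD mice with chow mice, and 3 of the 21 members were called, where 9.60% of all genes tested were. Ugt1a9 was 3.66-fold lower in SZ-A mice (log2 fold change -1.87 ± 0.14 SE; limma, adjusted p = 2.21e-05), with no overlap between 2.16 to 3.80 and 8.61 to 13.1 FPKM. Sult1c2 was 3.32-fold higher (log2 fold change 1.73 ± 0.22 SE; limma, adjusted p = 0.000947), again with no overlap. Higher calls made up 5.31% of all genes tested and lower calls 4.30%. These were the 2 members whose groups did not overlap, against 5.50% of all genes tested. Both calls held in every alternative in which the gene was tested.

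Sult2a8 was 1.58-fold higher in SZ-A than in NC mice (log2 fold change 0.66 ± 0.19 SE; limma, adjusted p = 0.0479). NC mice ran from 99.7 to 278 FPKM with a median of 199, so that the highest NC mouse lay above the lowest SZ-A mouse and below the other SZ-A mice. The call was lost in 12 of 23 alternatives, among them those without NC1, NC4, NC6 or any SZ-A mouse, with adjusted p up to 0.144 (limma), and without NC6 the adjusted p was 0.0634 (limma). The lowest NC mouse was NC5, and without it the log2 fold change was 0.47 with an adjusted p of 0.0216 (limma). Of the genes called in HFD against NC, Ugt2b34 had a log2 fold change of 0.50 ± 0.19 SE in SZ-A against NC (limma, adjusted p = 0.115; 0.0209 and called with the replicate number as a block, 0.0310 and called with sample weights), Ugt2b36 one of 0.22 ± 0.08 SE (adjusted p = 0.098), Sult2a7 one of 0.47 ± 0.35 SE (adjusted p = 0.433) and Sult1a1 one of -0.40 ± 0.24 SE (adjusted p = 0.317). Sult5a1 had 0.81 ± 0.30 SE (limma, adjusted p = 0.102) and Sult1b1 0.49 ± 0.20 SE (limma, adjusted p = 0.142). With sample weights both were called, Sult5a1 with an adjusted p of 0.0214 (limma). Without SZ-A5, Sult1b1 was called, with a log2 fold change of 0.63 and an adjusted p of 0.0343 (limma).

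**Figure D4:**
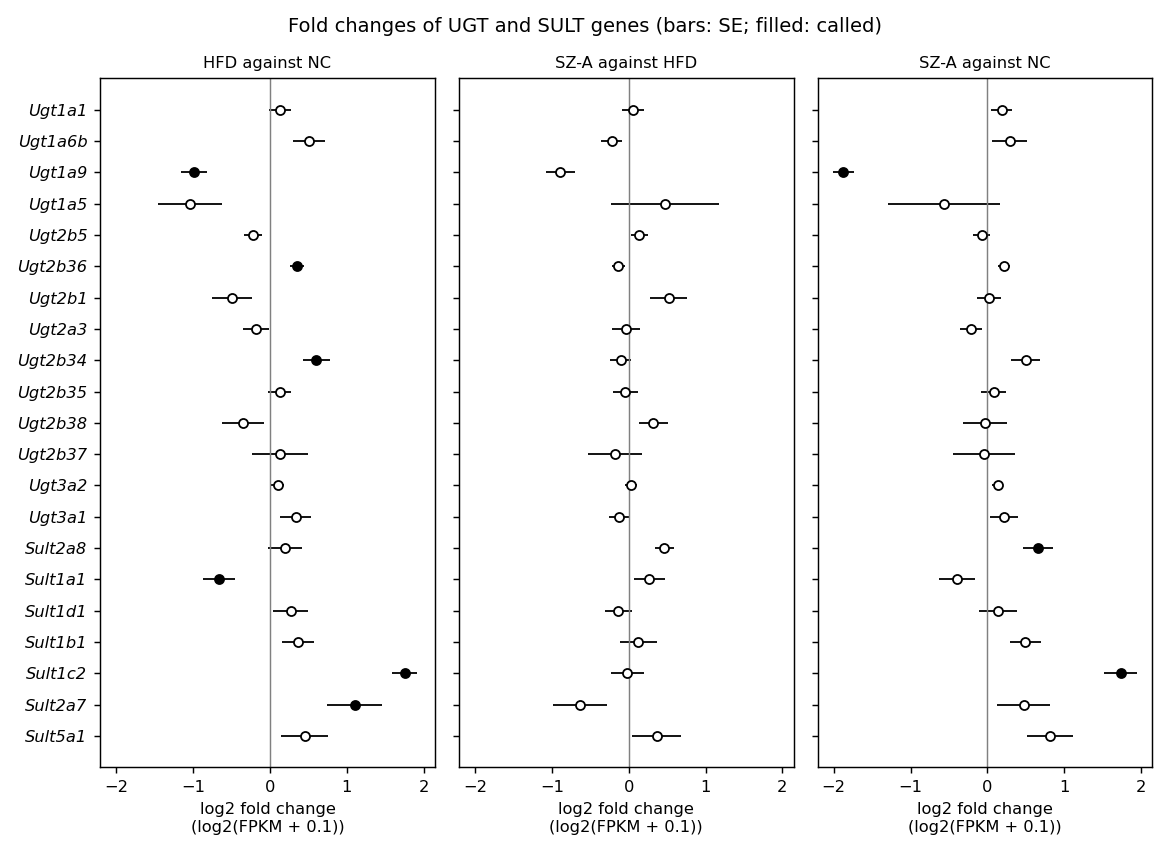
Log2 fold change with SE of the 21 tested UGT and SULT genes in HFD against NC, SZ-A against HFD and SZ-A against NC; filled points were called. The calls number 6, 0 and 3, and Ugt1a9 lies below 0 in each panel, at -0.98, -0.89 and -1.87.

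The 21 members under the filter were low or silent. At 0 in all 18 mice were 7 of them: Ugt2a1, Ugt2a2, Sult1c1, Sult2a4, Sult2a5, Sult2a6 and Sult6b2. The annotated exons of Ugt2a1 and Ugt2a2 overlap each other and the gene model Gm43638, and own bases made up 1.17% and 5.51% of their exon length. The highest of the others was Sult1e1, the estrogen sulfotransferase, at 2.15 FPKM in a HFD mouse, with 0 to 0.961 FPKM in NC, 0.306 to 2.15 in HFD mice and 0.406 to 1.08 in SZ-A mice. Without the filter its log2 fold change in HFD against NC was 1.42 ± 0.64 SE (limma, adjusted p = 0.242). Ugt1a7c reached 1.64 FPKM and Ugt1a6a 1.27, and Ugt1a10 reached 0.366. The rest reached at most 0.420 FPKM: Sult3a1 (0.420), Sult2a2 (0.384), Ugt1a2 (0.240), Sult2a1 (0.223), Sult6b1 (0.143), Sult4a1 (0.112), Ugt1a8 (0.0640), Sult3a2 (0.0594), Sult2a3 (0.0465) and Sult2b1 (0.0313). None of the 14 was called in any comparison when the filter was left out. Of all 27266 genes then tested, 1898 were called in HFD against NC and 564 in SZ-A against NC. In SZ-A against HFD it was 0 of all genes, so no member could be told apart there.

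Genes that supply the sugar and sulfate donors were read out beside the enzymes. The list also held genes for removal of sugar or sulfate groups from any substrate. Of its 14 tested genes, 6 were higher and 0 lower in HFD against NC, where 10.7% of all genes tested were higher and 9.49% lower. Ugp2, which makes UDP-glucose, had 127 ± 21.1 FPKM (SD, n = 6) in HFD against 93.8 ± 15.2 in NC mice. Ugdh, which oxidises UDP-glucose to UDP-glucuronic acid, had 24.2 ± 2.23 against 17.4 ± 3.78 FPKM. Slc35d1, which carries UDP-glucuronic acid into the endoplasmic reticulum, had 16.5 ± 1.45 against 12.8 ± 1.60 FPKM, and Papss1, which makes PAPS, 4.49 ± 0.676 against 2.67 ± 0.369. The other called genes, Arsa and Arsb, encode lysosomal sulfatases and stood at 23.3 ± 4.01 against 16.4 ± 1.58 and 3.30 ± 0.297 against 2.22 ± 0.464 FPKM. The log2 fold changes of these 6 were 0.36 to 0.73. The list's median was 0.10, against -0.03 over all genes tested.

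In SZ-A against HFD the same list gave 1 call, Arsb, which was lower at 2.19 ± 0.213 against 3.30 ± 0.297 FPKM (limma, adjusted p = 0.0298). In SZ-A against NC, Papss1 was higher at 4.10 ± 0.802 against 2.67 ± 0.369 FPKM. Gusb, the lysosomal β-glucuronidase, was lower there at 5.72 ± 0.982 against 8.39 ± 1.71 FPKM. Papss2, the other PAPS synthase, was not called in any of the 3 comparisons, with log2 fold changes of -0.11 to 0.07.

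Of 8 tested transporters of conjugates, 1 was called in HFD against NC, where 20.2% of all genes tested were. Slc10a1, the bile salt uptake carrier, was lower at 188 ± 31.3 against 249.6 ± 43.6 FPKM. The largest fold changes of the list in that comparison were those of Slco1a1 (log2 fold change -1.28, limma, adjusted p = 0.0826), Slco1b2 and Slc10a1. Slco1b2, an organic anion uptake carrier, was called in SZ-A against NC, higher at 363 ± 31.9 against 225 ± 49.6 FPKM. 0 of the 8 were called in SZ-A against HFD.

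Of 22 tested receptors and factors known to act on conjugation genes, 3 were higher and 0 lower in HFD against NC, where 10.7% and 9.49% of all genes tested were. Among them were Ghr, the growth hormone receptor, at 55.5 ± 7.59 against 36.6 ± 11.5 FPKM, and Nr1i3, the receptor CAR, at 9.26 ± 1.01 against 7.14 ± 1.21. Nr1i3 was also higher in SZ-A against NC, at 11.8 ± 2.78 FPKM. 0 of the 22 were called in SZ-A against HFD. Ahr, Nr1i2 (the receptor PXR), Nfe2l2, Ppara and Hnf4a were not called in any comparison.

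Many conjugation genes differ by sex or by position in the liver lobule, so both kinds of genes were read out beside them. Of 15 tested male-predominant genes, 4 were lower and 1 higher in HFD against NC, and of 8 tested female-predominant genes 3 were higher and 2 lower. Of all genes tested 10.7% were higher and 9.49% lower. Serpina1e (log2 fold change -2.41), Cyp2d9 (-0.75), Elovl3 (-1.83) and Cyp4a12b (-1.83) were the lower male-predominant genes and Nudt7 (1.19) the higher. Cyp2b9 (7.87), Cyp2b13 (4.52) and Cyp2a22 (2.90) were the higher female-predominant genes, and Cyp4a14 (-1.35) and Cyp17a1 (-1.57) the lower. In SZ-A against HFD 0 of either list were called. In SZ-A against NC, Hsd3b5 (3.92) and Nudt7 (1.5) were higher and Elovl3 (-1.61) lower on the male-predominant list, and Cyp2b9 (6.33) was higher and Cyp4a14 (-1.06) lower on the other.

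Of 13 tested periportal genes, 11 were lower and 1 higher in HFD against NC, and the counts were the same in SZ-A against NC. Over all genes tested 9.49% were lower and 10.7% higher in the former, and 4.30% and 5.31% in the latter. Among the lower genes were Pck1, Ass1, Cps1, Arg1, Hsd17b13, Asl, Gls2, Hal, Sds and Etnppl in both comparisons, and the higher was Ctsc. Of 14 pericentral genes, 6 were higher (among them Glul, Gulo, Lect2, Cyp7a1 and Rhbg) and 1 lower (Oat) in HFD against NC. In SZ-A against NC 5 were higher (among them Glul, Gulo, Cyp1a2 and Lect2) and Oat was lower. None of either list was called in SZ-A against HFD. The part of sex-dependent or zonal expression in the levels of the UGT and SULT genes was not tested.

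Single mice weighed on several members. Over the 21 tested genes, NC5 held the lowest or highest value of its group for 12, HFD5 for 11 and SZ-A5 for 13, against 2 to 10 for the other mice. NC5 was the lowest NC mouse for 10 members and SZ-A5 the lowest SZ-A mouse for 10, while HFD5 was the highest HFD mouse for 10. Without NC5, HFD against NC gave 5 calls, and without NC6 it also gave 5, Sult2a7 being lost in both cases. Over all genes tested the calls numbered 2145 and 2025, against 2062 with every mouse kept. In SZ-A against NC there were 3 calls without NC5 and 2 without NC6, where Sult2a8 was lost. Over all genes tested the calls numbered 1151 and 947, against 981 with every mouse kept.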

How the data were processed

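The submitters' labels and the study's methods state that liver RNA was extracted with TRIzol, poly-A RNA was selected, libraries were made with a NEBNext Ultra kit and read as 150-bp paired ends on an Illumina NovaSeq. Reads were aligned to mm10/GRCm38 with HISAT2 (2.0.5) and counted with featureCounts (1.5.0-p3), per the submitters' processing notes. The strand setting is not given in the sources used here. The authors deposited 1 table of FPKM per gene, with gene length and position. The authors' DESeq2 test was not repeated. The table has 0 columns of per-sample values that could not be mapped to a mouse.

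FPKM times gene length gave whole fragments for all values above 0 (tolerance 0.05 of a fragment), from which depth was taken. No mouse repeated another of its group. The limma package (3.58.1, in R 4.3.3; lmFit, eBayes with trend) was run on log2(FPKM + 0.1) of the 10216 genes that averaged 1 FPKM or more, each comparison on its own 2 groups of 6 mice, with Benjamini-Hochberg adjustment over all genes tested. A call needed a fold change above 1.2 with an adjusted p below 0.05. All 42 genes had the same coordinates and exon length in GENCODE M21 as in the table. Alternatives changed the pseudocount, the filter, the scaling, the fit and the thresholds, or left out 1 mouse.

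Every tested UGT and SULT gene was named with its values, and the others with their highest value. Of the other lists, the rule was to name the called genes and up to 3 genes with the largest fold change in HFD against NC, except that some genes are counted but not reported here by name. The genes and lists were chosen with earlier results of these data known. P-values set the difference between groups against the spread between mice. Fragment counts varied between mice of a group by more than counting error.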

Additional observations from a re-analysis of the deposited data

Results flagged for a closer look

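In 3 of the 63 sets of 6 mice (21 genes in 3 groups), a single mouse stood apart from its group by the gap to its nearest neighbour, where about 1 in 20 sets is flagged by chance. Sult1a1 in NC5 was at 415 FPKM, against 159 to 228 in the other NC mice. Ugt2b34 in NC5 was at 45 FPKM, against 81.4 to 99.7. Ugt2b35 in NC1 was at 75.1 FPKM, against 43.4 to 47.7. Both genes flagged in NC5 were called in HFD against NC with and without that mouse, and Ugt2b35 was not called in any comparison.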

How the results depend on the processing

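The count of called members in HFD against NC, 6, was 3 without the filter, 3 with the replicate number as a block and 2 at a fold change over 2, and 4 to 6 with 1 mouse left out. Scaled to a common sum it was 7. Sample weights gave 9, the 6 and Ugt1a5, Ugt1a6b and Ugt2b38. Over all genes tested, the 2062 calls became 1898 without the filter, which admits 27266 genes, and 1647 with the block. They became 371 at a fold change over 2, 2434 with a common sum and 2666 with sample weights. With 1 mouse left out they ran from 1646 to 2145. In SZ-A against HFD, 0 members were called, and 1 (Ugt1a9) with a common sum per mouse, with all 18 mice in 1 fit and with sample weights, and 0 with any mouse left out. Over all genes tested, the 15 calls became 216, 35 and 233 in those settings, and ran from 2 to 49 with 1 mouse left out. In SZ-A against NC, 3 became 6 with sample weights, and ran from 2 to 3 with 1 mouse left out. Over all genes tested, the 981 calls became 1682 with sample weights, and ran from 601 to 1179 with 1 mouse left out. Ugt1a9 and Sult1c2 kept their calls against NC in every alternative that tested them, apart from the stricter fold change, where Ugt1a9 was lost in HFD against NC. The same replicate numbers occur in each group, but same-numbered mice did not deviate together (correlations of -0.12 to 0.29 over 18 pairs), so the numbers were not taken as pairs. With the block SZ-A against HFD kept 0 calls among the members and gave 0 over all genes tested. SZ-A against NC had 4 members called, Ugt2b34 being added, and 922 genes over all tested.

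With median-ratio scaling the median log2 fold change of all genes was -0.03 in HFD against NC and 0.03 in SZ-A against HFD. A common sum per mouse moved it to 0.15 in HFD against NC and to -0.15 in SZ-A against HFD. It turned Ugt2a3 to 0.014 in the former, and Sult1b1 to -0.050, Ugt1a1 to -0.12, Ugt2b5 to -0.038 and Ugt3a2 to -0.14 in the latter. Sample weights turned Sult2a8 to -0.022 and Ugt2b37 to -0.31 in HFD against NC, Ugt2a3 to 0.055 in SZ-A against HFD and Ugt2b1 to -0.056 in SZ-A against NC. None of these 9 values was called. The causes were not tested.

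Leaving out 1 mouse also turned the sign of uncalled members. The log2 fold changes then ran from -0.10 to 0.29 for Ugt2b37 in HFD against NC. In SZ-A against HFD they ran from -0.015 to 0.27 for Sult1b1, -0.19 to 0.094 for Sult1c2, -0.020 to 0.15 for Ugt1a1, -0.11 to 0.097 for Ugt2a3, -0.10 to 0.073 for Ugt2b35, -0.39 to 0.049 for Ugt2b37 and -0.016 to 0.064 for Ugt3a2. In SZ-A against NC they ran from -0.085 to 0.088 for Ugt2b1, -0.27 to 0.18 for Ugt2b37 and -0.25 to 0.13 for Ugt2b38. Over the 63 log2 fold changes and their 1434 alternatives, 1342 kept direction and side of the threshold, 36 lost the call, 14 gained it and 42 turned sign. Changes of the thresholds are not among these alternatives, nor among those counted above for single genes. At a fold change over 2, Sult1a1, Ugt1a9, Ugt2b34 and Ugt2b36 also lost their calls in HFD against NC. Members under 1 FPKM rest on few fragments, which limits the precision of their values.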
